A study of Homo sapiens with 4 samples.

Results

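The distal end of the long arm of chromosome 8, in band 8q24.3, was examined gene by gene in RNA-Seq data from 3′ WRE-Mut and control HCT116 cells. Genes were taken if their deposited hg19 locus lay on chromosome 8 and started at 140 Mb or beyond, if their FPKM averaged 1 or more over the 4 libraries, and if they were not RPL8, CYC1, BOP1 or PYCRL. These criteria selected 96 genes of the 57815 listed and of the 14815 that reached that level. The region holds 201 listed genes, of which 101 were under the bound and 36 were at 0 in every library. FPKM is the number of fragments of a transcript scaled to its length and to the mapped fragments of the library, so levels of different genes are given per length. The criteria selected genes by their mean level over all libraries and did not contain the difference between the cell lines, but the region was chosen with earlier results of these data known.

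Control cells were unedited HCT116, an established cell line of human colorectal cancer and the parent of the clone. 3′ WRE-Mut cells were a single clone derived from HCT116 by CRISPR/Cas9, with a deletion of TBE1, the first TCF binding element of the Wnt responsive enhancer downstream of MYC. Polyadenylated RNA of 2 biological replicates of 3′ WRE-Mut cells and 2 of control cells was sequenced with single reads, and no drug or other treatment separated the groups. Because both 3′ WRE-Mut libraries came from the same clone, the deletion and any other difference between that clone and the parental population cannot be told apart. In bulk RNA, fewer cells that express a gene and less RNA per cell cannot be told apart either.

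The region is gene-dense and GC-rich and lies at the telomeric end of the arm that carries MYC. It holds genes of unrelated function, among them a cluster of zinc finger genes, part of the LY6 family of small cell surface proteins, and genes for scaffold proteins of epithelial cells such as plectin and scribble. In human cancers the MYC arm of chromosome 8 is often gained as a long segment, and genes of 8q24.3 are then gained with MYC. The question asked of these data was how the transcripts of the distal genes compared between 3′ WRE-Mut and control cells.

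MYC itself was at 48.0 and 34.2 FPKM in 3′ WRE-Mut libraries, against 111 and 113 FPKM in control libraries (log2 fold change −1.44, limma adjusted p = 0.0216 over protein-coding genes). Of 8 colorectal epithelial markers, KRT8, KRT18, EPCAM and CDH1 averaged at least 10 FPKM, CDX2 averaged 2.99 FPKM in 3′ WRE-Mut cells and 8.94 FPKM in control cells, and KRT20, VIL1 and LGALS4 were under 1 FPKM. These markers did not move in the same direction. KRT18 fell to 226 and 201 FPKM in 3′ WRE-Mut libraries, against 697 and 496 FPKM in control libraries (adjusted p = 0.0237), while CDH1 was at 49.5 and 73.0 FPKM in 3′ WRE-Mut libraries and 42.3 and 24.32 FPKM in control libraries (log2 fold change 0.89, adjusted p = 0.103). The sum of the 8 markers was 1151 to 1260 FPKM in 3′ WRE-Mut libraries and 1604 to 1964 FPKM in control libraries. Of 10 markers of fibroblasts, endothelium and leukocytes only COL1A1 averaged at least 1 FPKM, and the sum of the 10 was 22.4 to 29.9 FPKM in 3′ WRE-Mut libraries and 15.5 to 18.2 FPKM in control libraries. Library depth is unknown because FPKM was deposited without counts. Between 26851 and 29356 genes had a value above 0.

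Most distal 8q24.3 transcripts were at a lower level in 3′ WRE-Mut cells. The log2 fold change of FPKM + 1 was below 0 for 83 of the 96 genes (86.5%), against 51.7% of all tested genes. Its median was −0.82 with an interquartile range of −1.15 to −0.34, against a median of −0.03 over all tested genes. Set against the control mean, replicate 1 of 3′ WRE-Mut cells had a median of −0.66 and replicate 2 of −0.89. Both 3′ WRE-Mut libraries were below both control libraries for 73 genes (76.0%), against 30.6% of all tested genes, and above both for 6 genes (6.25%), against 28.7%. The groups overlapped for the remaining 17. By group means, 42 genes were at 50% or less of their control level, 33 were between 50 and 80%, and 21 were above 80%.

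A gene was called changed if limma gave an adjusted p under 0.05 (Benjamini-Hochberg). Over all 14815 tested genes none of the 96 passed, where 0.101% of tested genes were called lower and 0.0877% higher. At an unadjusted p under 0.05, 52 of the 96 were lower and 3 were higher, against 11.2% and 11% of all tested genes. Over the 11631 protein-coding genes, 23 of the 74 protein-coding genes of the region fell (31.1%), against 4.31% of all of them, and EEF1D rose, against 4.02%. Called genes that fell had log2 fold changes of −2.47 to −0.84 and stood at 7.07 to 55.6% of their control means. Among them TIGD5, FAM83H-AS1, ZFP41, ZNF623 and ZNF7 averaged under 1 FPKM in 3′ WRE-Mut cells. These genes met the level bound through the control libraries only, so the bound was not neutral to their direction. All statements below that a gene rose or fell rest on this protein-coding test. These calls depend on the pair of control libraries: without control replicate 1 none was left, and without control replicate 2 only GSDMD and TIGD5 were left. The count of 24 also became 0 with no filter on low values and 10 with a pseudocount of 0.1. Of all protein-coding genes in those fits, 0.00562% and 2.26% were called lower, against 4.31% in the main fit. A limit to annotated genes with transcripts of at least 200 bases brought the count over all classes to 10, all lower. In that fit 1.82% of genes were called lower, against 0.101% without the limit. For a single gene in 2 libraries against 2, the smallest p of an exact two-sided permutation test is 0.333.

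**Figure D1:**
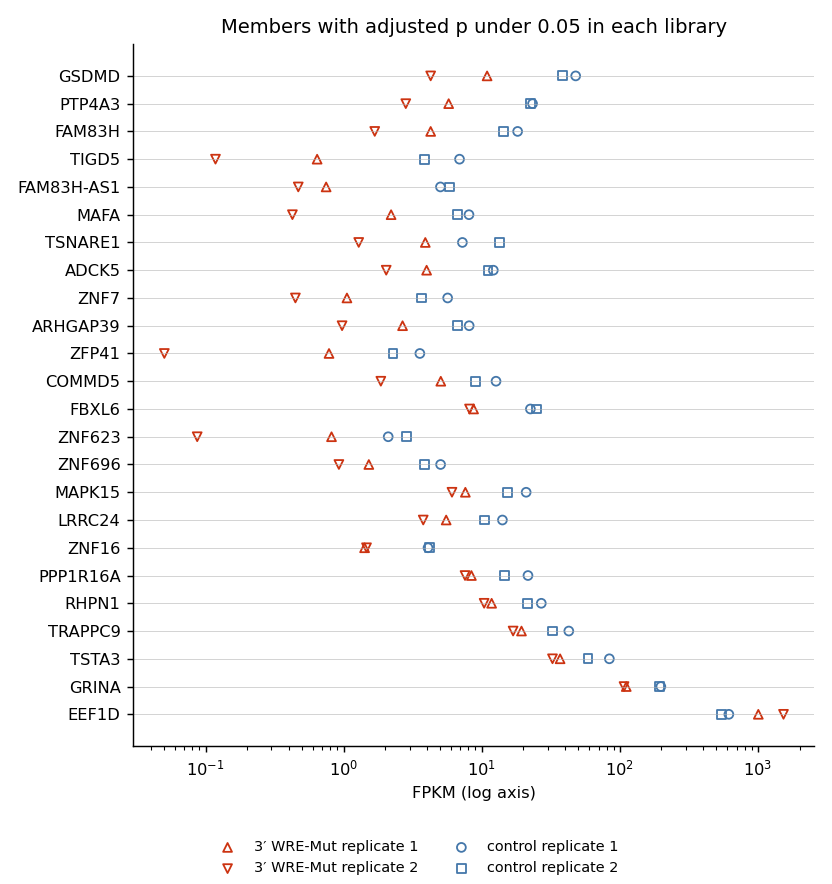
FPKM (log axis) of the 24 genes with an adjusted p under 0.05, with 1 symbol per library, 3′ WRE-Mut libraries as triangles and control libraries as a circle and a square. Both triangles lie left of both control symbols for every gene down to GRINA, and right of them for EEF1D.

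Some values moved along with these differences. Control replicate 1 was above replicate 2 for 75 of the 96 genes, against 62.3% of all tested genes, and the median log2 difference between these replicates was 0.29 for the distal genes and 0.10 for all tested genes. In 3′ WRE-Mut cells, replicate 2 was below replicate 1 for 65 genes, with a median log2 difference of 0.21 between replicate 1 and replicate 2, against 0.00 over all tested genes. Of the 23 genes that fell, 22 were lower in replicate 2 of 3′ WRE-Mut cells than in their replicate 1. Transcripts of the region had a median GC content of 63.4%, against 50.3% over all tested genes. In the eighth of protein-coding genes with the highest GC content (61.6 to 76.0%) the median log2 fold change was −0.79 for 51 distal genes and −0.14 for 1403 other genes. The gap differed in the eighths below, which held few distal genes. The median was −0.46 for 8 distal genes and −0.07 for others at 58.2 to 61.6% GC. It was −0.11 for 7 and −0.01 at 54.6 to 58.2%, and −0.54 for 5 and −0.01 at 50.6 to 54.6%. At matched level it was −0.95 for distal genes and −0.18 for others at 1 to 5 FPKM, −0.84 and −0.03 at 5 to 20 FPKM, −0.58 and 0.10 at 20 to 100 FPKM, and −0.45 and 0.24 above that. The part of the replicate differences and of the marker sums in the lower levels was not tested.

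For 8 genes the control mean was at least 1 FPKM and the 3′ WRE-Mut mean was under 1 FPKM, so that they entered through the control libraries, and the reverse held for 0 genes. Those 8 were CTD-3064M3.1, GPR20, ZFP41, TIGD5, ZNF623, FAM83H-AS1, MIR661 and ZNF7. Among the 64 genes that averaged 5 FPKM or more the median was −0.77. At the lower edge of the level bound GPR20, an orphan G protein-coupled receptor gene, averaged 1.12 FPKM, CTD-3064M3.1 averaged 1.17 FPKM and JRK averaged 1.40 FPKM, while RP11-429J17.8 at 0.969 FPKM and CTD-2517M14.5 at 0.961 FPKM stayed just outside.

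The difference was present along most of the region. Between 140 and 141 Mb the tested genes went apart, with KCNK9 at 0.09 and TRAPPC9 at −1.0 (median −0.46). The 4 genes of the next megabase had a median of −0.66, and the 6 between 142 and 143 Mb −0.74. The 8 genes between 143 and 144 Mb, which include PSCA and LYNX1 of the LY6 family, had a median of 0.01. They were mixed, from −1.70 to 0.31, and 3 of them were lower without overlap. The 33 genes between 144 and 145 Mb had a median of −1.0 and held 11 of the 23 genes that fell. Medians were −0.73 for 36 genes between 145 and 146 Mb and −1.02 for the 7 beyond. At the start of the segment, KHDRBS3 (chromosome 8, from 136469700), the last tested gene before the bound, was at 6.86 and 12.2 FPKM in 3′ WRE-Mut libraries, against 21.5 and 20.9 FPKM in control libraries. KCNK9, a potassium channel gene and the first inside the bound, was at 10.9 and 9.07 FPKM in 3′ WRE-Mut libraries, against 10.4 and 8.36 FPKM in control libraries, and these ranges overlapped.

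**Figure D2:**
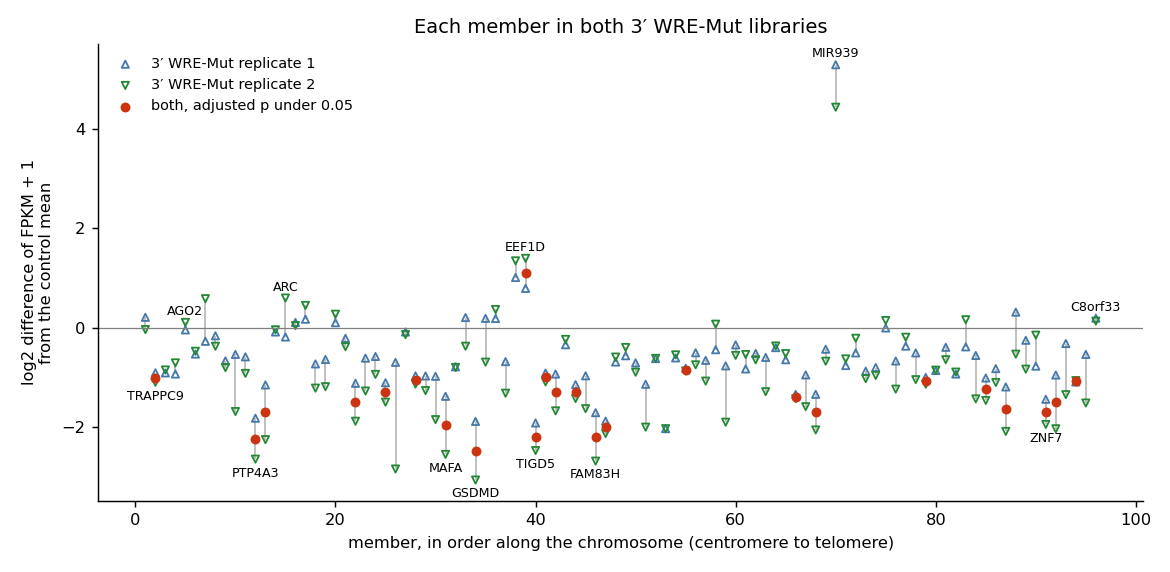
Log2 difference of FPKM + 1 of each 3′ WRE-Mut library from the control mean for the 96 genes in their order along chromosome 8. Each library has its own triangle, and red dots give the log2 fold change of genes called lower or higher. Most points lie below 0, and the 8 genes between 143 and 144 Mb, PSCA and LYNX1 among them, have a median log2 fold change near 0.

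Other parts of chromosome 8 had smaller differences in the same direction. The 239 tested genes of the long arm before 140 Mb had a median log2 fold change of −0.32, and 49.0% of them had each 3′ WRE-Mut value below each control value. The 187 genes of the short arm had a median of −0.23 with 40.1% lower in this sense, and the 14289 genes of other chromosomes a median of −0.01 with 29.9%. Of protein-coding genes, 11.9% were called lower on the long arm before the bound, 9.49% on the short arm and 3.94% on other chromosomes. In 10-Mb windows of chromosome 8 before the bound, 13 of 14 medians were below 0, and they spanned −0.67 to 0.25. Over its 400 protein-coding genes, those of distal 8q24.3 included, chromosome 8 had a median of −0.38. This was the lowest of the 23 chromosomes compared (1 to 22 and X), followed by chromosome 13 at −0.10. Protein-coding genes alone had medians of −0.29 on the long arm before the bound and −0.24 on the short arm. These medians are descriptions, and the difference between segments was not tested.

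**Figure D3:**
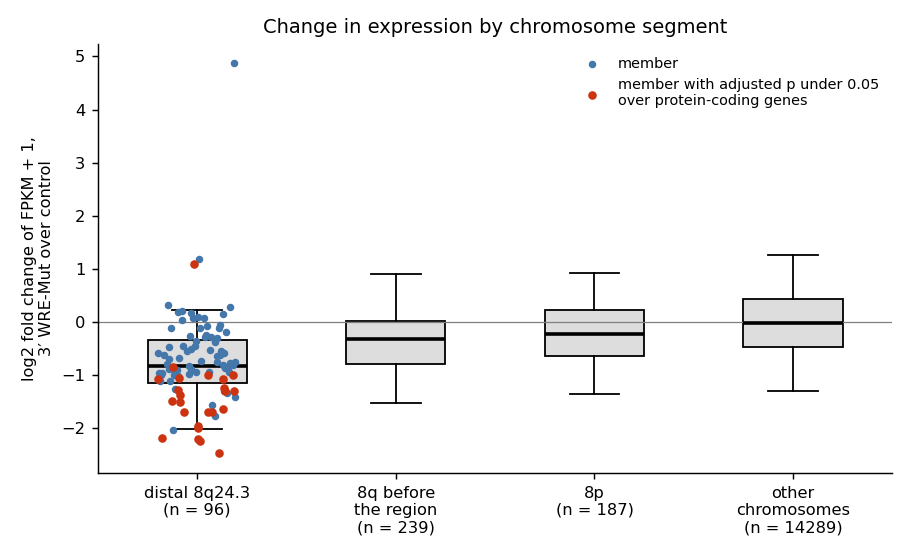
Log2 fold changes of FPKM + 1 (3′ WRE-Mut over control) of the tested genes in the distal 8q24.3 segment, the rest of the long arm, the short arm of chromosome 8 and all other chromosomes. The medians are −0.82, −0.32, −0.23 and −0.01.

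Genes of inflammation, ubiquitin and kinase signalling included the gene with the lowest log2 fold change among those called. GSDMD encodes gasdermin D, whose cleaved form opens pores in the plasma membrane during pyroptosis. It was at 10.9 and 4.27 FPKM in 3′ WRE-Mut libraries, against 47.8 and 38.6 FPKM in control libraries (log2 fold change −2.47 ± 0.37 SE, adjusted p = 0.0157). The libraries of the groups were well apart, and the mean was 17.6% of the control mean. FBXL6, an F-box protein of SCF ubiquitin ligases, had close replicates, with 8.72 and 8.15 FPKM in 3′ WRE-Mut libraries against 22.5 and 24.8 FPKM in control libraries (−1.38 ± 0.24, adjusted p = 0.0241). MAPK15, an atypical mitogen-activated protein kinase, fell to 7.61 and 6.08 FPKM in 3′ WRE-Mut libraries, against 21.0 and 15.4 FPKM in control libraries (adjusted p = 0.0346). PPP1R16A, which targets protein phosphatase 1, was at 8.41 and 7.56 FPKM in 3′ WRE-Mut libraries, against 21.6 and 14.6 FPKM in control libraries, just past the threshold (adjusted p = 0.0498). SHARPIN, an adaptor of the linear ubiquitin chain ligase, just missed it, with 34.5 and 15.2 FPKM in 3′ WRE-Mut libraries and 63.2 and 55.9 FPKM in control libraries (−1.33, adjusted p = 0.0513). Of the 8 genes of this group 7 were lower without overlap and 4 passed the test, with a group median of −1.17. CYHR1 (now ZFTRAF1) was the exception, with 18.5 and 20.7 FPKM in 3′ WRE-Mut cells and 21.0 and 16.4 FPKM in control cells. Counts of this and the later groups stand beside the shares of the whole region. There 76.0% of genes were lower without overlap, against 30.6% of all tested genes. Of its protein-coding genes 31.1% fell, against 4.31% of all protein-coding genes. No group was tested against the rest of the region.

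Genes for cytoskeletal, adhesion and polarity proteins made up 11 of the 96, of which 9 were lower without overlap and 4 fell by the test (median −0.64). PTP4A3 encodes the phosphatase PRL-3, known for its high expression in metastases of colorectal cancer. It was at 5.76 and 2.82 FPKM in 3′ WRE-Mut libraries, against 23.3 and 22.4 FPKM in control libraries (−2.23 ± 0.32, adjusted p = 0.0120). FAM83H, which organises keratin filaments and is mutated in an inherited defect of tooth enamel, was at 4.27 and 1.68 FPKM in 3′ WRE-Mut libraries, against 18.2 and 14.4 FPKM in control libraries (−2.19 ± 0.35, adjusted p = 0.0191). For FAM83H alone among the 96, the upper Cufflinks bound of each 3′ WRE-Mut library was also under the lower bound of each control library, which held for 0.189% of all tested genes. The reverse held for 0 of the 96 and for 0.0607% of all tested genes. ARHGAP39 was at 2.67 and 0.974 FPKM in 3′ WRE-Mut libraries and 8.10 and 6.70 FPKM in control libraries (−1.64, adjusted p = 0.0340). RHPN1 fell to 11.8 and 10.4 FPKM, against 27.0 and 21.3 FPKM in control libraries (−1.05, adjusted p = 0.0442).

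The scaffold genes of this group were more abundant and differed less. PLEC, for the cytoskeletal linker plectin, was at 72.0 and 72.2 FPKM in 3′ WRE-Mut libraries and 115 and 108 FPKM in control libraries (−0.62, adjusted p = 0.101). SCRIB, for the polarity protein scribble, was at 52.7 and 56.6 FPKM in 3′ WRE-Mut libraries and 94.5 and 77.4 FPKM in control libraries (−0.64, adjusted p = 0.105). PTK2, for focal adhesion kinase, was at 54.2 and 56.4 FPKM in 3′ WRE-Mut libraries and 77.7 and 79.5 FPKM in control libraries (−0.50, adjusted p = 0.163). The groups were separate for all 3, yet none passed the test. EPPK1, a plakin like plectin, was at 2.36 and 0.845 FPKM in 3′ WRE-Mut libraries and 8.05 and 5.01 FPKM in control libraries (−1.57, adjusted p = 0.171 over all genes), and it was not in the protein-coding test because its identifier has no entry in the annotation used.

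Of the zinc finger genes, all but GLI4 and ZNF251 were at low levels, with ZNF250 at 5.87 FPKM in control replicate 2 as their highest value in any library. All 11 had a log2 fold change below 0, 10 were lower without overlap and 5 fell by the test (median −0.94). ZNF7 was at 1.06 and 0.447 FPKM in 3′ WRE-Mut libraries, against 5.66 and 3.66 FPKM in control libraries (−1.69 ± 0.32, adjusted p = 0.0257). ZFP41 was at 0.784 and 0.0503 FPKM in 3′ WRE-Mut libraries, against 3.56 and 2.28 FPKM in control libraries (−1.50, adjusted p = 0.0394). ZNF16 had the closest replicates, with 1.42 and 1.46 FPKM in 3′ WRE-Mut libraries and 4.08 and 4.21 FPKM in control libraries (−1.08 ± 0.27, adjusted p = 0.0460). ZNF696 and ZNF623 passed as well, at 27.4% and 18.2% of their control means, with adjusted p = 0.0381 and 0.0473. Of the zinc finger genes that fell, ZNF7, ZFP41 and ZNF623 met the level bound through the control libraries only. The pair with overlapping groups was that of ZNF251, with 13.7 and 7.20 FPKM in 3′ WRE-Mut libraries and 10.5 and 11.2 FPKM in control libraries. GLI4, the most abundant of the 11, was at 18.5 and 11.3 FPKM in 3′ WRE-Mut libraries and 35.1 and 23.5 FPKM in control libraries (−0.94, adjusted p = 0.0861). Several of these genes share deposited loci with neighbours and have related sequences, so reads could have been split between them.

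Among the 3 tested transcription factor genes of other families, MAFA fell. MAFA, a basic leucine zipper factor best known from pancreatic beta cells, was at 2.21 and 0.426 FPKM in 3′ WRE-Mut libraries, against 8.08 and 6.65 FPKM in control libraries (−1.96 ± 0.39, adjusted p = 0.0293). HSF1, the main activator of the heat shock response, was more abundant, at 59.5 and 54.3 FPKM in 3′ WRE-Mut libraries and 105 and 69.5 FPKM in control libraries (−0.58, adjusted p = 0.174). FOXH1, a partner of SMAD proteins, was at 5.06 and 3.17 FPKM in 3′ WRE-Mut libraries and 8.54 and 6.75 FPKM in control libraries. The groups did not overlap for any of the 3, and the median was −0.77.

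**Figure D4:**
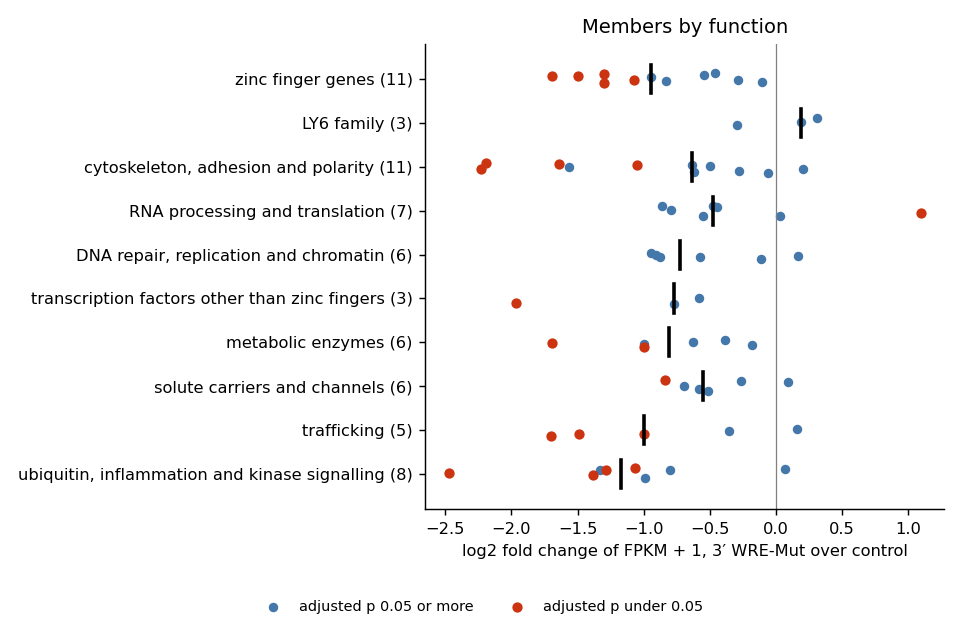
Log2 fold change of FPKM + 1 (3′ WRE-Mut over control) of the 66 genes that fall into function groups, 1 point per gene, with the group median as a black bar and the number of genes in parentheses. Genes with an adjusted p under 0.05 over protein-coding genes are red, and the LY6 family is the only group with a median above 0.

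All 6 tested metabolic genes had a log2 fold change below 0, with 5 lower without overlap and 2 that fell (median −0.81). ADCK5, of the ADCK family of mitochondrial kinase-like proteins, was at 3.99 and 2.03 FPKM in 3′ WRE-Mut libraries, against 12.1 and 11.1 FPKM in control libraries (−1.70 ± 0.31, adjusted p = 0.0255). TSTA3 (now GFUS), which makes GDP-fucose for glycoproteins, was at 36.9 and 32.5 FPKM in 3′ WRE-Mut libraries, against 83.9 and 58.8 FPKM in control libraries (−1.0, adjusted p = 0.0482). NAPRT1 (now NAPRT), the enzyme that starts NAD synthesis from nicotinic acid, was among the most abundant genes of the region. It was at 165 and 106 FPKM in 3′ WRE-Mut libraries and 301 and 232 FPKM in control libraries, a difference of similar size that missed the threshold (−1.0, adjusted p = 0.0586). DGAT1, for the last step of triglyceride synthesis, was at 83.9 and 85.9 FPKM in 3′ WRE-Mut libraries and 123 and 99.8 FPKM in control libraries. GPAA1, a subunit of GPI transamidase, overlapped between groups, with 31.6 and 45.6 FPKM in 3′ WRE-Mut libraries and 56.5 and 33.1 FPKM in control libraries.

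Of 5 trafficking genes 3 fell, and the median was −1.0. TRAPPC9, a subunit of the TRAPP II vesicle tethering complex, was at 19.4 and 16.9 FPKM in 3′ WRE-Mut libraries, against 42.7 and 32.4 FPKM in control libraries (−1.0 ± 0.25, adjusted p = 0.0468). TSNARE1, which has a t-SNARE domain, was at 3.90 and 1.29 FPKM in 3′ WRE-Mut libraries, against 7.24 and 13.3 FPKM in control libraries (−1.70, adjusted p = 0.0450). COMMD5, of a family that acts in endosomal recycling, was at 5.05 and 1.86 FPKM in 3′ WRE-Mut libraries, against 12.7 and 8.98 FPKM in control libraries (−1.49, adjusted p = 0.0487). The replicates of these last 2 genes differed widely. VPS28, of the ESCRT-I complex, was at 81.4 and 100.1 FPKM in 3′ WRE-Mut libraries and 126 and 106 FPKM in control libraries, and DENND3 overlapped between groups.

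Of 6 genes for carriers and channels 5 were lower without overlap (median −0.55), and GRINA passed the test. GRINA encodes a membrane protein of the TMBIM family that acts in calcium handling. It was at 111 and 107 FPKM in 3′ WRE-Mut libraries, against 198 and 195 FPKM in control libraries (−0.84 ± 0.22, adjusted p = 0.0490). SLC39A4, the intestinal zinc importer ZIP4, was at 67.5 and 74.1 FPKM in 3′ WRE-Mut libraries and 122 and 108 FPKM in control libraries (−0.69, adjusted p = 0.0830). SLC52A2, a riboflavin transporter, was at 32.8 and 35.9 FPKM in 3′ WRE-Mut libraries and 62.9 and 42.6 FPKM in control libraries (adjusted p = 0.171).

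None of the 6 genes of DNA repair, replication and chromatin passed, although 4 were lower without overlap (median −0.73). RECQL4, a RecQ helicase mutated in Rothmund-Thomson syndrome, was at 16.4 and 16.9 FPKM in 3′ WRE-Mut libraries and 38.2 and 27.2 FPKM in control libraries (−0.91, adjusted p = 0.0589). CHRAC1, a histone-fold protein of chromatin remodelling complexes, was at 8.95 and 9.36 FPKM in 3′ WRE-Mut libraries and 19.02 and 16.4 FPKM in control libraries (−0.88, adjusted p = 0.0597). TONSL, which acts in the repair of stalled replication forks, was at 2.70 and 2.33 FPKM in 3′ WRE-Mut libraries and 6.86 and 4.82 FPKM in control libraries (adjusted p = 0.0706).

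The group for RNA processing and translation held the gene that rose. EEF1D, a subunit of the exchange factor that recharges elongation factor 1A with GTP, was the most abundant gene of the 96. It was at 1005 and 1529 FPKM in 3′ WRE-Mut libraries, against 615 and 546 FPKM in control libraries (1.10 ± 0.28, adjusted p = 0.0488), and without 3′ WRE-Mut replicate 2 its adjusted p was 0.106. In the same deposited locus, which the files merge over 3 genes, TIGD5 went the other way, with 0.643 and 0.118 FPKM in 3′ WRE-Mut libraries against 6.90 and 3.86 FPKM in control libraries (−2.19 ± 0.34, adjusted p = 0.0167). TIGD5 derives from a transposable element and stood at 7.07% of its control mean, and it met the level bound through the control libraries only. The third transcript of that locus, the non-coding RP11-661A12.7, was at 9.76 and 12.6 FPKM in 3′ WRE-Mut libraries and 5.80 and 3.18 FPKM in control libraries (1.18, adjusted p = 0.171 over all genes). Read strand is not stated, so these overlapping genes cannot be fully told apart.

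Of the other 6 genes of this group 5 were lower without overlap and none passed. EXOSC4, of the RNA exosome, was at 24.2 and 17.9 FPKM in 3′ WRE-Mut libraries and 43.2 and 34.5 FPKM in control libraries (−0.86, adjusted p = 0.0689). CPSF1, the large subunit of the factor that recognises the polyadenylation signal, was at 91.2 and 77.0 FPKM in 3′ WRE-Mut libraries and 127 and 119 FPKM in control libraries (−0.55, adjusted p = 0.139). PUF60, a splicing factor, was at 65.0 and 73.1 FPKM in 3′ WRE-Mut libraries and 93.7 and 99.2 FPKM in control libraries (−0.48, adjusted p = 0.184). AGO2, the Argonaute protein that cleaves targets of small RNAs, overlapped, with 16.9 and 18.9 FPKM in 3′ WRE-Mut libraries and 18.6 and 16.4 FPKM in control libraries (0.03, adjusted p = 0.938).

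Only 3 of 10 LY6 family genes were tested, and none of the 3 was lower without overlap. LY6E was at 169 and 149.7 FPKM in 3′ WRE-Mut libraries and 237 and 161 FPKM in control libraries (−0.30, adjusted p = 0.468). PSCA, a prostate and stomach surface antigen, was at 1.71 and 2.29 FPKM in 3′ WRE-Mut libraries and 1.51 and 1.31 FPKM in control libraries (0.31, adjusted p = 0.474), and LYNX1 overlapped. At the telomeric end of the region, C8orf33 was slightly higher, at 41.5 and 39.8 FPKM in 3′ WRE-Mut libraries and 38.9 and 33.6 FPKM in control libraries (0.16, adjusted p = 0.654). KCNK9, AGO2, DENND3, ARC, LYNX1, JRK and CYHR1 had log2 fold changes above 0 with overlapping groups.

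Genes outside these groups numbered 30, of which 9 were protein-coding. FAM83H-AS1 lies beside FAM83H and is named IQANK1, a protein-coding gene, in the newer annotation. It had the lowest adjusted p of the region, with 0.747 and 0.469 FPKM in 3′ WRE-Mut libraries against 5.02 and 5.84 FPKM in control libraries (−2.0 ± 0.28, adjusted p = 0.0107). FAM83H-AS1 met the level bound through the control libraries only. LRRC24, a leucine-rich repeat gene, fell to 5.52 and 3.77 FPKM in 3′ WRE-Mut libraries, against 14.1 and 10.4 FPKM in control libraries (−1.24, adjusted p = 0.0426). The 22 transcripts of other classes or with no annotation entry had a median of −0.93, with 15 lower and 3 higher without overlap, and none passed the test over all genes.

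Among the non-coding transcripts, RP13-582O9.5 carries the name MINCR in newer annotations, a long non-coding RNA known for its induction by MYC. It was at 21.5 and 16.5 FPKM in 3′ WRE-Mut libraries and 37.8 and 28.1 FPKM in control libraries (−0.76, adjusted p = 0.202 over all genes). GS1-393G12.12, which shares its locus with HSF1, was at 15.8 and 9.43 FPKM in 3′ WRE-Mut libraries and 30.0 and 19.8 FPKM in control libraries (−0.94, adjusted p = 0.223 over all genes). The short hairpin MIR939, inside the locus that holds CPSF1, was at 166.8 and 91.8 FPKM in 3′ WRE-Mut libraries, against 17.3 FPKM and a listed 0 in control libraries (adjusted p = 0.178 over all genes). MIR661 was listed at 15.7 FPKM in control replicate 1 and at 0 in the other libraries. Values in FPKM of such short transcripts are unstable, since they divide few reads by a short length.

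For members of known complexes and families, the partner genes encoded outside the region were set beside them. Of 79 tested partners 6 fell (EXOSC8, EXOSC2, EXOSC10, TRAPPC6A, DST and EVPL) and 0 rose in the protein-coding test, in which 4.31% of all genes were called lower and 4.02% higher, so the partners are read as a description only. The 6 became 0 when either control library was left out and 32 without replicate 1 of 3′ WRE-Mut cells. Only 2 partners of SHARPIN in the linear ubiquitin ligase were tested, RNF31 at −0.56 and RBCK1 at −0.04. Their median log2 fold change was −0.30, against −1.33 for SHARPIN. The other TRAPP subunits had a median of −0.02, against −1.0 for TRAPPC9. Among those subunits TRAPPC6A had a log2 fold change as low as that of TRAPPC9 (−1.0, adjusted p = 0.0471), and TRAPPC11 was at −0.90 (adjusted p = 0.0975). Other genes of NAD salvage had a median of −0.18, against −1.0 for NAPRT1, and NAMPT, the rate-limiting enzyme of salvage from nicotinamide, was at 64.0 and 85.8 FPKM in 3′ WRE-Mut libraries and 37.1 and 51.4 FPKM in control libraries (0.75, adjusted p = 0.100). The exosome partners had a median of −0.24, against −0.86 for EXOSC4, and included 3 of the 6 that fell. EXOSC8 at −1.46, EXOSC2 and EXOSC10 at −1.16 each and EXOSC6 at −0.98 (adjusted p = 0.103) had lower log2 fold changes than EXOSC4. Among partners of CPSF1 (−0.55), CPSF3 was at −0.90, CPSF2 at −0.89, CPSF4 at −0.40, WDR33 at −0.21 and FIP1L1 at 0.08. The 79 also counted CPSF3L (−0.07) and CPSF7 (0.80), which share the name but are not subunits of this factor. For SCRIB (−0.64) the median of the partners was −0.42. For HSF1 (−0.58) the 2 other tested heat shock factors went apart, with HSF2 at 0.01 and HSF4 at −0.90. Partners of GPAA1, VPS28, PTK2 and AGO2 had medians of 0.10, 0.02, −0.16 and 0.28, against −0.18, −0.36, −0.50 and 0.03. Each of these lists held partners both above and below the gene of the region, such as PTK2B at −0.56 below PTK2.

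The plakin genes elsewhere had a median of −0.72, against −0.62 for PLEC and −1.57 for EPPK1, and the other RecQ helicases −0.65, against −0.91 for RECQL4. Of these helicases RECQL5 at −0.96 and BLM at −0.92 were as low as RECQL4, while WRN was at −0.38 and RECQL at 0.71. Within the plakins DST was at 19.5 and 13.2 FPKM in 3′ WRE-Mut libraries, against 40.5 and 42.7 FPKM in control libraries (−1.32, adjusted p = 0.0293). The partners of EEF1D had a median of 0.58. EEF1B2, a related exchange factor subunit, was at 452 and 802 FPKM in 3′ WRE-Mut libraries and 280.3 and 293 FPKM in control libraries (1.07, adjusted p = 0.0586). EEF1A1, the elongation factor itself, was at 1773 and 3336 FPKM in 3′ WRE-Mut libraries and 1215 and 1166 FPKM in control libraries (1.03, adjusted p = 0.0843). These side-by-side medians were not tested against each other.

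**Figure D5:**
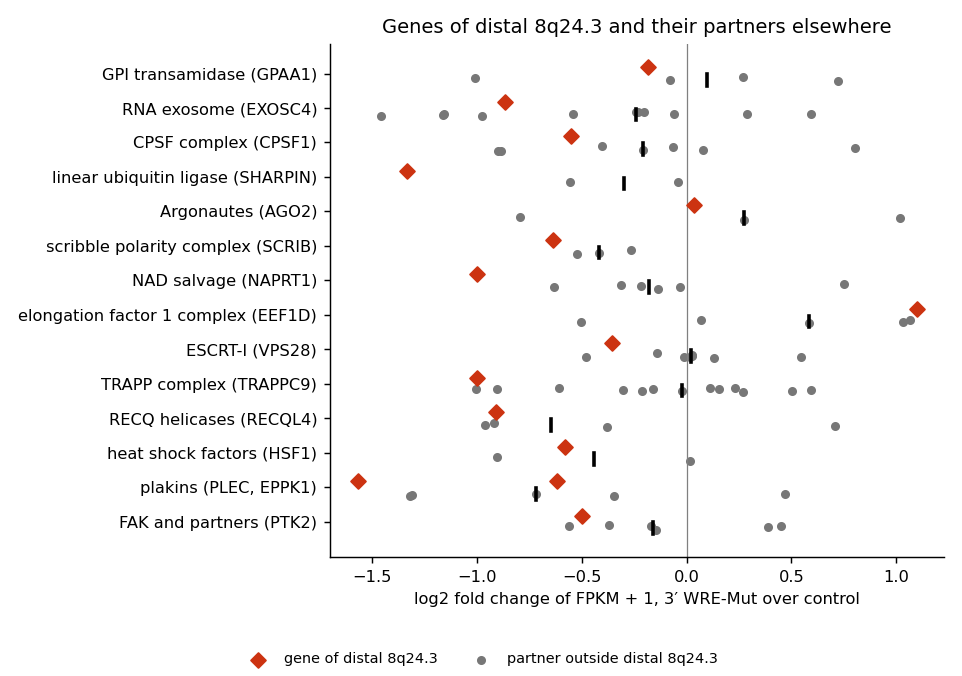
Log2 fold change of FPKM + 1 (3′ WRE-Mut over control) of genes of distal 8q24.3 (red diamonds) and of their partners in the same complex or family encoded outside the region (grey points), with the partners' median as a black bar. SHARPIN, TRAPPC9 and NAPRT1 lie below their partners' medians, and EEF1D lies above 0 together with most of its partners. The points and median beside CPSF1 include CPSF3L and CPSF7, which are not subunits of its complex.

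Of the genes of the same segment that were set aside, PYCRL was at 1.12 and 0.996 FPKM in 3′ WRE-Mut libraries, against 3.93 and 2.91 FPKM in control libraries (adjusted p = 0.0486), and the log2 fold changes of BOP1, RPL8 and CYC1 were −0.77, −0.23 and 0.03.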

How the data were processed

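RNA-Seq was performed on 2 biological replicates each of 3′ WRE-Mut and control cells. After trimming with the FASTX-Toolkit, the authors used TopHat2 2.0.9 for alignment to hg19 and deposited FPKM values per gene and library, with lower and upper bounds of each FPKM, made with Cufflinks and Gencode annotation (Cufflinks version 2.2.1 by the submitters' processing notes and another by the paper's methods). Some deposited loci span several neighbouring genes: 29 of the 96 genes had a locus of their own and 67 shared one. Read strand is not stated, no whole reads could be recovered from the FPKM steps, and depth is unknown. A further deposited table holds the authors' own comparison made with Cuffdiff and was not used.

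In R 4.3.3, limma 3.58.1 was fitted by group to log2(FPKM + 1) with a variance trend, for all genes averaging 1 FPKM or more and for those annotated protein-coding in Gencode v44lift37 (92 of the 96 genes have an entry, 74 as protein-coding). The adjusted p threshold was 0.05 (Benjamini-Hochberg over the whole table), and fold changes on this scale understate the change of low genes. Positions are those of the deposited loci, GC content is the median over annotated transcripts, and FPKM bounds were compared as deposited. The fit was tested on simulated data. The region, the gene lists and the tests were chosen with earlier results of these data known. Genes were named if called, if among the 12 largest changes without overlap or the 10 highest levels, if among the 4 strongest of a function group, or if at the edges of the criteria. Partners and the 3 most abundant non-coding transcripts could be named, and other genes named were chosen after their values were seen.

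Alternatives were quantile normalization, scaling by median ratios, a pseudocount of 0.1 or 0.5, a level filter of 5 FPKM or none, a fit with the variance trend off or with a robust prior, a limit to transcripts of 200 bases or more, a block for replicate number, and leaving out each library. Their use on the partner count was chosen after seeing the data. The limit on transcript length also left out genes without an annotation entry. Python 3.11.15 and matplotlib 3.10.9 were used for figures.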

Additional observations from a re-analysis of the deposited data

How the results depend on the processing

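The count of distal 8q24.3 genes called in either direction over all tested genes was 0. It became 10, all of them lower, with annotated transcripts of at least 200 bases. In that fit 1.82% of 13592 genes were called lower, against 0.101% in the main fit. The count over protein-coding genes was 24 and became 10 with a pseudocount of 0.1, 15 with a pseudocount of 0.5, 0 with no filter on low values and 38 with the replicate block, and it spanned 0 to 42 when each library was left out in turn (0 without replicate 1 of control cells, 2 without their replicate 2, 42 without replicate 1 of 3′ WRE-Mut cells and 24 without their replicate 2). With 1 library left in a group, the lone library is assumed to vary as the other group does. The median log2 fold change of −0.82 stayed below 0 under every alternative, between −0.93 and −0.66, and was −0.91 to −0.66 with a library left out. The partner count of 6 became 1 with a pseudocount of 0.1, 0 with no filter, 10 with a mean of at least 5 FPKM, 2 with median-ratio scaling, 11 with quantile normalization and 19 with the replicate block, and spanned 0 to 32 when each library was left out. When a library was left out, the log2 fold change of KCNK9 spanned −0.052 to 0.23 (−0.035 without replicate 1 of 3′ WRE-Mut cells), that of JRK −0.020 to 0.17 and that of LYNX1 −0.47 to 0.85. Replicate numbers are shared by the groups, but nothing in the labels ties same-numbered libraries together, and the deviations of same-numbered libraries from their group means correlated at 0.11 over 11631 genes, so the block is an alternative only. Depth is unknown, and with 2 libraries per group the spread is known poorly.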
